A study of Homo sapiens with 21 samples.

Results

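The genes described here encode the LSD1-CoREST corepressor, the zinc-finger repressors that bring it to DNA in blood cells, and an adaptor of a ubiquitin ligase that acts on it. They were chosen by symbol and number 10 of the 58174 gene identifiers in the files: KDM1A, RCOR1, RCOR2, RCOR3, HDAC1, HDAC2, HMG20B, GFI1, GFI1B and KBTBD4. KDM1A, also called LSD1, removes methyl groups from lysine 4 of histone H3. The RCOR genes encode the CoREST scaffolds, HDAC1 and HDAC2 the histone deacetylases held by the same complex, and HMG20B a DNA-binding subunit. GFI1 and its paralog GFI1B recruit the complex to repressed genes of myeloid and erythroid cells, and KBTBD4 is a substrate adaptor of the CUL3 ubiquitin ligase that can direct CoREST proteins to degradation. All of these are regulators whose proteins can change without their RNA, and only RNA was measured here.

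The cells were OCI-AML5, an established human acute myeloid leukemia line, studied by stranded poly(A) RNA-seq in 21 libraries that form 7 groups of 3. UM171 is a small molecule used to expand human blood stem cells in culture. Control cells received DMSO (its libraries are labelled 72 h) or 500 nM UM171 for 6, 24, 48 or 72 h, and cells expressing a guide against EPCR (sgEPCR, labelled as a clone with EPCR knockdown) received DMSO or 500 nM UM171 for 24 h. The labels name no guide for the control cells, though the study's legends do, and the DMSO libraries of the 2 genotypes carry different times (72 h and 24 h), so genotype, time in culture and clone cannot be told apart between them. The study describes several sgEPCR clones, and the labels do not say which library came from which. Nothing in the labels says that the 3 libraries of a group came from separate cultures, so that p-values measure the spread between these libraries.

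Total counts ran from 24286668 to 51540166 per library. Mitochondrial genes held 35.93% of the counts in replicate 1 of sgEPCR DMSO and 32.17% in replicate 2 of sgEPCR UM171, against 7.73% to 13.47% in the other 19 libraries. These 2 libraries stood apart for most of the genes below, so the main sgEPCR results are given with and without them. Of 8 myeloid markers, 7 were over 1 TPM (a transcript level scaled for length and library) in every library, among them PTPRC, SPI1 and LYZ. ANPEP stayed between 0 and 1.14 TPM. Their summed level was 1531 to 1623 TPM in DMSO, 2267 to 2467 TPM at 72 h, 759 to 1309 TPM in sgEPCR DMSO and 1289 to 1835 TPM in sgEPCR UM171. Of the 8, 4 were called as higher and 3 as lower at 72 h, where 38.8% and 36.8% of all genes were. In sgEPCR DMSO against DMSO 0 were called as higher and 5 as lower, where 33.7% of all genes were called in either direction. Of 12 markers of other cell types, CD79A was present in every library, at 5.87 to 40.35 TPM, and CD3D reached 18.81 TPM, whereas MS4A1 and ALAS2 were at 0 in every library. The summed level of these 12 genes was 10.0 to 10.98 TPM in DMSO, 34.3 to 57.7 TPM at 24 to 72 h of UM171, 7.99 to 22.3 TPM in sgEPCR DMSO and 13.3 to 32.4 TPM in sgEPCR UM171. The part of either marker list in the results below was not tested. In bulk RNA, fewer cells of a kind and less RNA per cell cannot be told apart. PROCR, which encodes EPCR, rose by 3.71 ± 0.09 (SE) on the log2 scale at 24 h of UM171 in control cells (adjusted p = 1.7e-15, edgeR) and by 0.65 ± 0.12 in sgEPCR cells (adjusted p = 0.001), a difference of -3.06 ± 0.17 (adjusted p = 5.8e-07), and of -2.92 ± 0.14 without the 2 libraries (adjusted p = 2.2e-10). Under DMSO it was not lower in sgEPCR cells but higher, by 0.42 ± 0.12 (adjusted p = 0.022), and by 0.33 ± 0.11 (adjusted p = 0.019) without the 2 libraries, a call lost with total counts (0.15, adjusted p = 0.6). A guide edits DNA, so the RNA of its target is only an indirect check of the label.

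In DMSO the 10 genes spanned a wide range of levels. HDAC2 was the most abundant (203.8 ± 11.4 TPM, SD, n = 3), followed by GFI1 (156 ± 8.49), HDAC1 (89.8 ± 1.89), KDM1A (73.1 ± 1.68), HMG20B (67.2 ± 5.67), RCOR1 (46.1 ± 2.43), RCOR3 (31.3 ± 3.06) and KBTBD4 (15.7 ± 0.999). RCOR2, at 0.340 ± 0.151 TPM, and GFI1B, at 0.0200 ± 0.0173 TPM, were near the lower end of what these libraries can measure. The ranges of neighbouring genes in this order did not overlap, although those of KDM1A (71.7 to 75.0 TPM) and HMG20B (60.6 to 70.6 TPM) came close. GFI1B had 0 to 3 counts in each control library and was below the filter on low counts. For the other 9 genes, p-values are from the edgeR quasi-likelihood test, adjusted by Benjamini and Hochberg over all genes tested, 16575 in the time course. Fold changes are relative to the mean of the remaining transcripts by TMM scaling. At 6 h this choice matters, because scaling by total counts moves the median log2 fold change of all genes from 0.02 to 0.20.

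**Figure D1:**
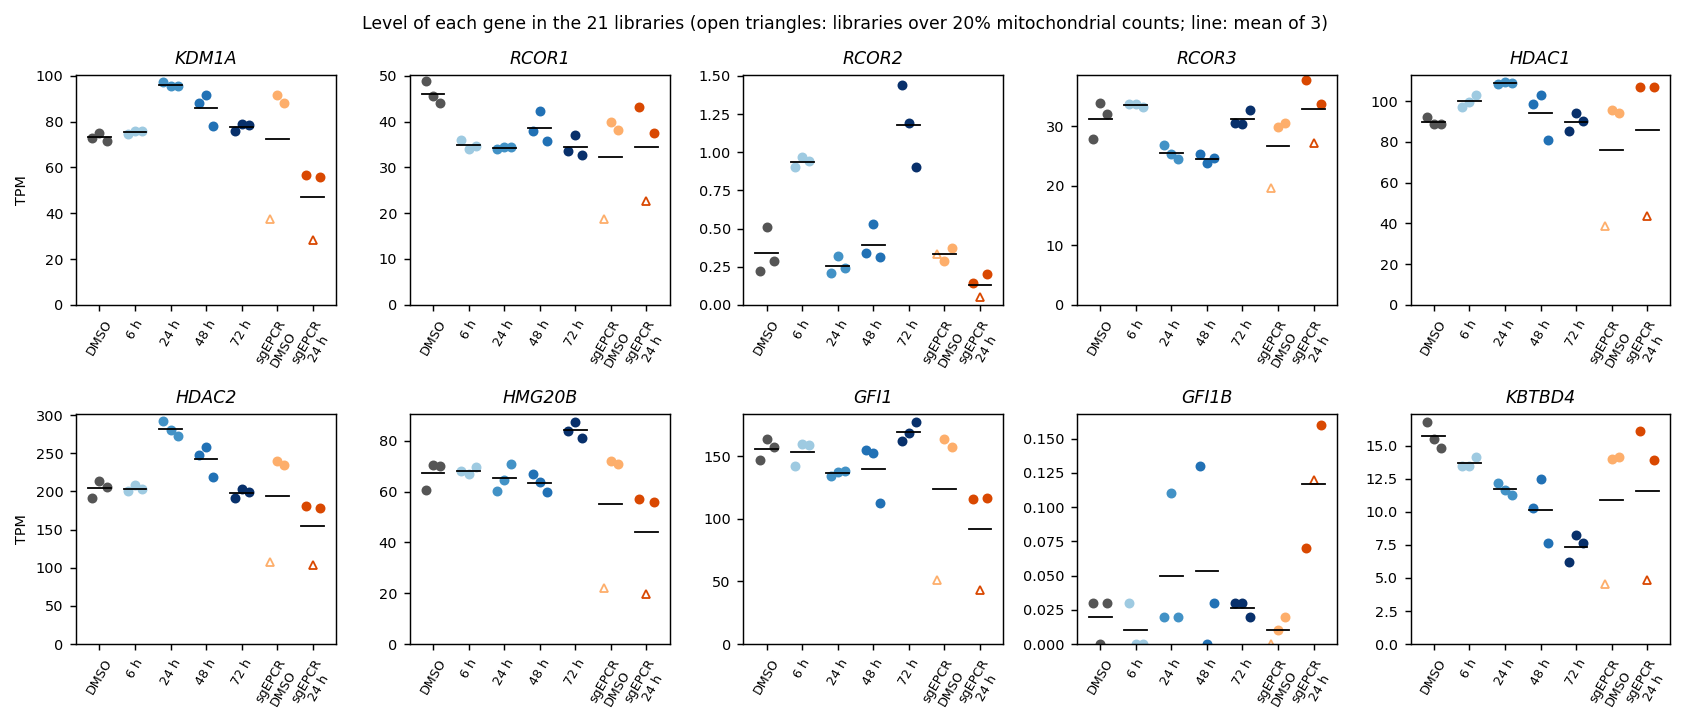
Level of each of the 10 genes in TPM (vertical axes, each from 0) in the 21 libraries, by group. Points are libraries, horizontal lines are means of 3, and open triangles are the 2 libraries with over 20% mitochondrial counts, which both lie lowest of their group in 8 of the 10 panels. KBTBD4 goes from 14.8 to 16.8 TPM in DMSO to 6.21 to 8.28 TPM at 72 h.

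The first question was how the genes of the complex changed while UM171 acted in control cells. The response was broad across the transcriptome, so that counts of calls say little by themselves: at an adjusted p under 0.05, 8 of the 9 tested members were called at 6 h, where 62.1% of all genes were. The counts were 7 of 9 at 24 h (69.7% of all genes), 7 of 9 at 48 h (72.1%) and 6 of 9 at 72 h (75.6%). With the study's stricter limits, an adjusted p under 0.0001 and a change of over 2-fold, RCOR2 was called at 6 h (7.03% of all genes), no member at 24 h (13.7%) or 48 h (16.4%), and RCOR2 and KBTBD4 were called at 72 h (20.8%). The other members moved by less than 2-fold. The 4 comparisons share the same DMSO libraries. Since these are labelled 72 h, the comparison at 72 h is the one matched in time, and at 6, 24 and 48 h the part of UM171 cannot be told apart from that of time in culture.

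KBTBD4, the ligase adaptor, was lower than DMSO at every time, and its decrease was larger at each later time. Its levels were 16.8, 15.5 and 14.8 TPM in DMSO and 13.5, 13.5 and 14.2 TPM at 6 h. They were 12.2, 11.6 and 11.3 TPM at 24 h, 10.3, 12.5 and 7.62 TPM at 48 h, and 6.21, 8.28 and 7.65 TPM at 72 h. No UM171 library reached the lowest DMSO library. The log2 fold change was -0.31 ± 0.05 (SE) at 6 h (adjusted p = 9.1e-05, edgeR), -0.40 ± 0.05 at 24 h (adjusted p = 3.8e-06), -0.66 ± 0.05 at 48 h (adjusted p = 7.9e-09) and -1.27 ± 0.06 at 72 h (adjusted p = 1.7e-12). The steps from 24 to 48 h (-0.26, adjusted p = 0.00091) and from 48 to 72 h (-0.61, adjusted p = 1.7e-07) passed the edgeR test themselves, as 45.7% and 57.3% of all genes did. That from 6 to 24 h, which 67.1% of all genes passed, did not (-0.09, adjusted p = 0.15). The call at 6 h depended on the scaling: with total counts the change was -0.12 (adjusted p = 0.12). The calls at 24, 48 and 72 h held in all 19 alternatives, with values of -1.004 to -1.29 at 72 h. Replicate 3 of the 48 h group held 13.47% mitochondrial counts and was the lowest library there. Without it the change at 48 h was -0.61.

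RCOR1 also was lower than DMSO at every time, but without a steady decline. This gene encodes the main CoREST scaffold, which links KDM1A to the deacetylases. It was at 48.8, 45.6 and 44.01 TPM in DMSO and at 36.1, 34.1 and 34.7 TPM at 6 h. Levels at 24 h (34.0, 34.4 and 34.4 TPM), 48 h (37.9, 42.4 and 35.8 TPM) and 72 h (33.5, 37.1 and 32.8 TPM) also lay below all 3 DMSO libraries. The decrease was -0.53 ± 0.03 on the log2 scale at 6 h (adjusted p = 7e-10, edgeR), -0.39 ± 0.03 at 24 h (adjusted p = 9.1e-09), -0.21 ± 0.03 at 48 h (adjusted p = 1.4e-05) and -0.52 ± 0.03 at 72 h (adjusted p = 1.2e-10). All 4 calls held in every alternative, with values between -0.35 and -0.58 at 6 h. RCOR1 rose from 24 to 48 h (0.18, adjusted p = 0.00025) and fell again from 48 to 72 h (-0.31, adjusted p = 4.2e-07).

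These 2 genes were the members that were lower at all 4 times, and their promoter windows are shown for that reason (RefSeq, GRCh38.p14, 250 bases before to 50 bases after the start of transcription, each on the strand of its gene). The KBTBD4 window lies at chr11:47578921-47579220 on the minus strand and the RCOR1 window at chr14:102592399-102592698 on the plus strand. Capitals mark the core of the GFI1 site, AATC, and the letters CCGGAAG, the core of an ETS site, on either strand.
KBTBD4: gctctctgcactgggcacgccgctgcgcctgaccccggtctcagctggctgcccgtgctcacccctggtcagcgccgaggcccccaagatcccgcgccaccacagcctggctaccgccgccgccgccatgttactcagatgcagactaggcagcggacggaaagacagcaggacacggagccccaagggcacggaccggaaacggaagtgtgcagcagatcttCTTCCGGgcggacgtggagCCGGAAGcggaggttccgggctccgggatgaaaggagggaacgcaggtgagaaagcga
RCOR1: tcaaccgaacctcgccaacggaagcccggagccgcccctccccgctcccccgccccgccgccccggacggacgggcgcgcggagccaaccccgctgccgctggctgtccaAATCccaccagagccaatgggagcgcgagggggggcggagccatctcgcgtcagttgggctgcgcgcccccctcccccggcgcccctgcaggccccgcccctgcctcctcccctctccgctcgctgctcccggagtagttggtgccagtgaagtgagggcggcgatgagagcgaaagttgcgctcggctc
AATC occurred once in the RCOR1 window and not in that of KBTBD4, and 69.0% of the 35116 promoter windows hold it. CCGGAAG occurred at 2 places in the KBTBD4 window and not in that of RCOR1, against 10.3% of all windows with at least 1. That motif was searched after the sequence had been seen. RefSeq windows were matched for 9 of the 10 members (all but RCOR2). GFI1, RCOR3, HDAC1, HDAC2, HMG20B and GFI1B also held AATC in at least 1 window, and KDM1A did not. These matches describe letters, not binding. The KBTBD4 start is 104 bases from that of NDUFS3, a subunit of respiratory complex I on the opposite strand, and the windows share 203 bases.

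The genes around KBTBD4 (chr11:47572197-47578976, minus strand) bear on its counts. In the GENCODE 44 annotation NDUFS3 and PTPMT1, both on the plus strand, overlap it, by 6780 and 1265 bases. The RefSeq start of NDUFS3 given above, chr11:47579074, lies outside KBTBD4, so the overlap with NDUFS3 depends on the annotation. The libraries are stranded, but the strand setting of the counting is not given in the sources used here. NDUFS3 was lower at 6 h (-0.44 ± 0.10, adjusted p = 0.00088, edgeR), 48 h (-0.33 ± 0.10, adjusted p = 0.0056) and 72 h (-0.68 ± 0.10, adjusted p = 7.2e-06), as KBTBD4 was. At 24 h NDUFS3 was not called (0.11 ± 0.10, adjusted p = 0.33), whereas KBTBD4 was. PTPMT1, which encodes a mitochondrial phosphatase, fell by 0.20 at 48 h and 0.23 at 72 h on the log2 scale (adjusted p = 0.0028 and 0.00071, edgeR), against decreases of 0.66 and 1.27 for KBTBD4. Of the other members, HMG20B shares 1514 bases with MFSD12 and GFI1B 2875 bases with TSC1, each on the opposite strand. RNA assigned to these members may therefore include reads of their neighbours, which was not tested. RSEM's own posterior SD of the count was 0 for 205 of the 210 member values and at most 0.47.

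KDM1A and HDAC2, the demethylase and the more abundant deacetylase, followed similar courses. Both were higher at 24 and 48 h, and at 72 h their levels were near those in DMSO. KDM1A was at 72.8, 75.0 and 71.7 TPM in DMSO, at 74.4, 75.8 and 76.0 TPM at 6 h and at 97.2, 95.6 and 95.7 TPM at 24 h. It was at 88.4, 91.8 and 78.2 TPM at 48 h and at 75.8, 79.0 and 78.4 TPM at 72 h. The 24 h libraries lay above all others of the control cells. KDM1A rose by 0.36 ± 0.03 on the log2 scale at 24 h (adjusted p = 2.8e-08, edgeR) and by 0.28 ± 0.03 at 48 h (adjusted p = 6.7e-07), and at 72 h its change was 0.01 ± 0.03 (adjusted p = 0.76). In TPM its 72 h libraries lay slightly above all DMSO libraries. The change at 72 h ran from -0.02 to 0.09 over 20 settings, and the smallest adjusted p among them was under 0.05. The decrease from 48 to 72 h passed the edgeR test (-0.27, adjusted p = 2.4e-06).

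HDAC2 levels were 191, 214 and 206 TPM in DMSO, 200.4, 208 and 203 TPM at 6 h and 292, 281 and 273 TPM at 24 h. They were 248, 259 and 219 TPM at 48 h and 192, 204 and 199 TPM at 72 h. Only the 24 and 48 h groups lay above all DMSO libraries. The log2 change was 0.44 ± 0.05 at 24 h (adjusted p = 1.6e-07, edgeR) and 0.30 ± 0.05 at 48 h (adjusted p = 1.1e-05). The 24 and 48 h calls of both genes held in all 19 alternatives. The small changes at 6 h did not: KDM1A was -0.10 (adjusted p = 0.017) and HDAC2 -0.14 (adjusted p = 0.015) with TMM scaling, and 0.09 (adjusted p = 0.037) and 0.05 (adjusted p = 0.39) with total counts. The call of HDAC2 at 72 h (-0.11, adjusted p = 0.04) was lost in 14 of its 19 alternatives.

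HDAC1, the other deacetylase of the complex, moved less than HDAC2. It ranged from 88.5 to 91.9 TPM in DMSO and from 108.6 to 109.5 TPM at 24 h, and rose by 0.24 ± 0.04 on the log2 scale there (adjusted p = 1e-05, edgeR), in all alternatives. Its calls at 48 h (0.09, adjusted p = 0.026) and 72 h (-0.09, adjusted p = 0.038) were lost in 9 and 13 of 19 alternatives. HDAC1 made up 30.6% ± 1.62 (SD, n = 3) of the summed TPM of HDAC1 and HDAC2 in DMSO, 27.9% ± 0.733 at 24 h and 27.97% ± 0.833 at 48 h, with no overlap between the libraries of either time and those in DMSO. The exact permutation test gave p = 0.1 for both, two-sided, the smallest that 3 against 3 libraries allow, and 0.21 after adjustment over the 21 shares compared.

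RCOR3 and RCOR2, the other CoREST scaffolds, took different courses from RCOR1. RCOR3 ran from 27.9 to 33.9 TPM in DMSO, from 24.4 to 26.9 TPM at 24 h and from 23.8 to 25.4 TPM at 48 h. It fell by 0.35 ± 0.05 on the log2 scale at 24 h (adjusted p = 4.5e-06, edgeR) and by 0.46 ± 0.05 at 48 h (adjusted p = 1.7e-07), in all alternatives, and was at -0.05 ± 0.05 at 72 h (adjusted p = 0.39). Its change at 6 h was -0.12 (adjusted p = 0.037) with TMM scaling and 0.07 (adjusted p = 0.3) with total counts. RCOR3 was lowest at the times when KDM1A and HDAC2 were high.

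RCOR2 was the one member that rose by more than 2-fold, from a very low level. Its libraries held 13 to 19 counts in DMSO, 42 to 60 at 6 h, 10 to 26 at 24 h, 16 to 28 at 48 h and 48 to 59 at 72 h. In TPM these were 0.22, 0.51 and 0.29 in DMSO, 0.90, 0.97 and 0.94 at 6 h, and 1.44, 1.19 and 0.90 at 72 h. The 6 and 72 h groups lay above all DMSO libraries, and the 24 h group (0.21, 0.32 and 0.24 TPM) overlapped them. The log2 change was 1.51 ± 0.22 at 6 h (adjusted p = 1.2e-05, edgeR), -0.19 ± 0.25 at 24 h (adjusted p = 0.58), 0.49 ± 0.24 at 48 h (adjusted p = 0.089) and 1.58 ± 0.21 at 72 h (adjusted p = 3.1e-06). The step from 6 to 24 h was a decrease of -1.69 (adjusted p = 2.5e-06) and that from 48 to 72 h an increase of 1.09 (adjusted p = 0.00021). Even at 72 h RCOR2 was a small part of the RCOR transcripts, so the RCOR1 share of the 3 genes was set by RCOR1 and RCOR3. That share was 59.4% ± 3.53 (SD, n = 3) in DMSO, 50.3% ± 0.732 at 6 h and 51.5% ± 2.29 at 72 h, without overlap with DMSO at either time (exact permutation p = 0.1, the smallest possible; 0.21 adjusted). The size depends on the scale: the difference at 6 h was -9.05 points from TPM and -5.49 points from expected counts. At 24 h (57.0% ± 1.35) and 48 h (60.7% ± 2.48) the libraries overlapped those in DMSO. In sgEPCR cells the RCOR1 share was 53.6% ± 4.46 with DMSO and 50.4% ± 4.25 with UM171. Each lay below the control group of the same treatment without overlap.

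GFI1, which recruits the complex to myeloid genes, changed little. It was at 147, 164 and 157 TPM in DMSO, at 134, 138 and 138 TPM at 24 h, at 155, 152 and 113 TPM at 48 h and at 162, 168 and 177 TPM at 72 h. The log2 change was -0.19 ± 0.04 at 6 h (adjusted p = 0.00095, edgeR), -0.25 ± 0.04 at 24 h (adjusted p = 7.3e-05), -0.16 ± 0.04 at 48 h (adjusted p = 0.0035) and 0.01 ± 0.04 at 72 h (adjusted p = 0.79). The first 3 of these calls were lost with a correction for GC content, and that at 6 h with total counts too (-0.01, adjusted p = 0.9). HMG20B, the DNA-binding subunit, rose at 72 h, from 60.6, 70.6 and 70.2 TPM in DMSO to 83.8, 87.2 and 81.2 TPM (log2 change 0.27 ± 0.06, adjusted p = 0.00035, edgeR). That call was lost only in the fit of all 21 libraries. Its direction at the earlier times depended on the processing: at 24 h the change was -0.08 (adjusted p = 0.25), and 0.37 (adjusted p = 1.6e-05) with the GC correction. At 64.6%, HMG20B and RCOR2 have the highest GC content of the 10 genes.

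**Figure D2:**
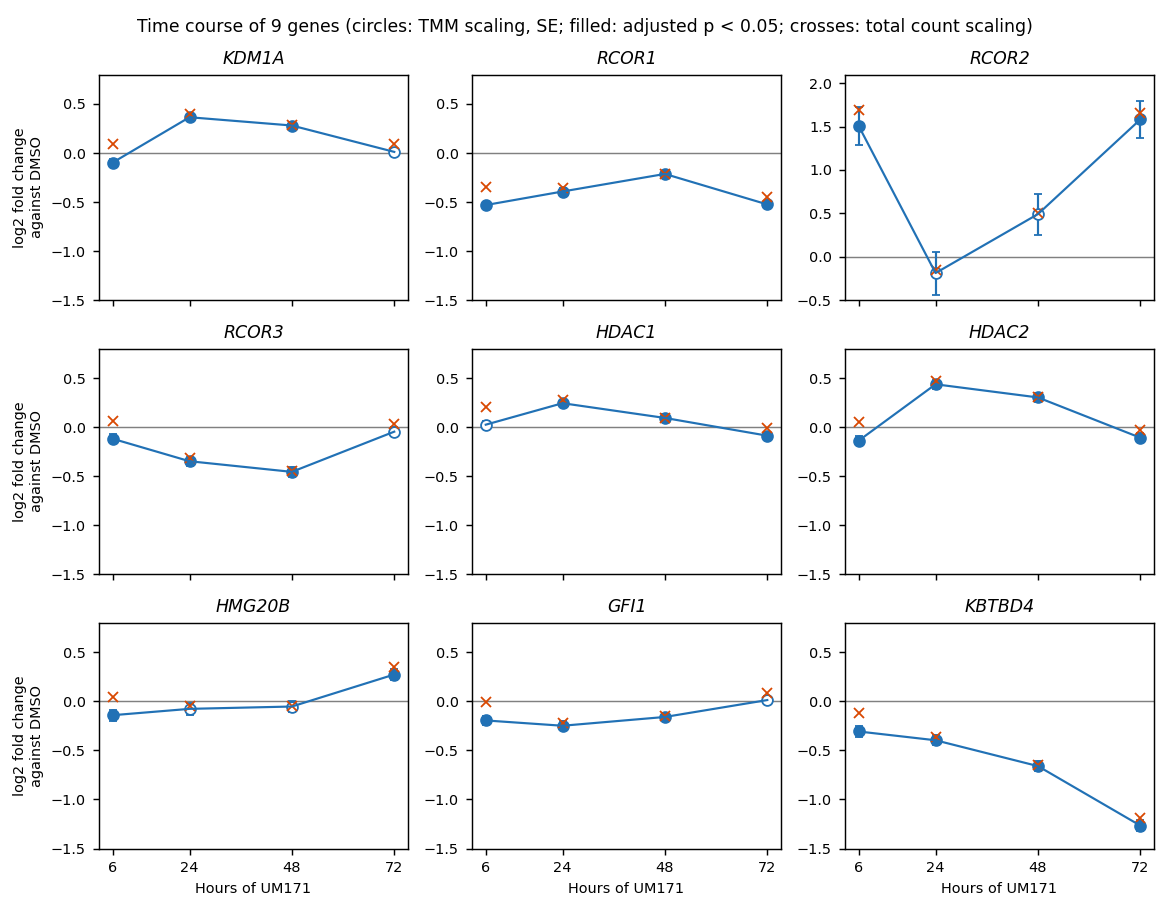
Log2 fold change against DMSO (vertical axis; RCOR2 has its own range) by hours of UM171 in control cells for the 9 tested genes. Circles and bars are edgeR values with TMM scaling and their SE, filled where the adjusted p is under 0.05, and crosses are values with total count scaling. The crosses lie above the circles at 6 h and near them at 24 and 48 h, and KBTBD4 goes down to -1.27 at 72 h.

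The next question was whether cells with the EPCR guide responded alike at 24 h. For KDM1A and HDAC2 they did not: both were lower after UM171 in sgEPCR cells and higher in control cells. The DMSO libraries are labelled 24 h in sgEPCR cells and 72 h in control cells. The part of time in this difference cannot therefore be told apart from that of genotype. KDM1A was at 37.3, 91.6 and 88.2 TPM in sgEPCR DMSO and at 56.8, 28.3 and 55.9 TPM in sgEPCR UM171. HDAC2 was at 107, 239 and 235 TPM and at 181, 104 and 178 TPM in the same groups. The first value of sgEPCR DMSO and the second of sgEPCR UM171 belong to the libraries high in mitochondrial counts. TPM sum to a constant, so a smaller sum is left for the other genes in those libraries. The decrease was unequal between genes, and its cause was not tested. In replicate 1 of sgEPCR DMSO, HMG20B was at 22.1 TPM, against 72.1 and 71.0 TPM in replicates 2 and 3. RCOR3 was at 19.7 TPM there, against 30.0 and 30.5 TPM, and RCOR2 was not lowest (0.33 against 0.29 and 0.37 TPM). With TMM scaling the log2 change of KDM1A was -0.86 ± 0.06 (adjusted p = 1.3e-06, edgeR) and that of HDAC2 -0.55 ± 0.12 (adjusted p = 0.0023). Without the 2 libraries, which leaves 2 against 2, the changes were -0.88 ± 0.04 and -0.63 ± 0.05 (adjusted p = 5.3e-11 and 3.8e-08). The libraries left out were the most deviant of their groups, so these smaller p-values are no stronger evidence.

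The difference between the genotypes in the response itself, tested as an interaction, was -1.23 ± 0.09 for KDM1A (adjusted p = 2.7e-06, edgeR) and -0.99 ± 0.16 for HDAC2 (adjusted p = 0.00062). It also holds the unlike times of the DMSO libraries. HDAC1 differed too, by -0.38 ± 0.13 (adjusted p = 0.03), a call that was lost in 13 of 27 alternatives, the replicate block among them (adjusted p = 0.11). These 3 of 9 members were called where 45.0% of all genes were, and with the stricter limits KDM1A was, where 7.77% of all genes were. Without the 2 libraries 8 of 9 were, where 69.2% of all genes were: KDM1A (-1.24 ± 0.05), HDAC2 (-1.06 ± 0.06), RCOR1 (0.22 ± 0.04), RCOR3 (0.50 ± 0.07), HDAC1 (-0.34 ± 0.05), HMG20B (-0.45 ± 0.07), GFI1 (-0.44 ± 0.05) and KBTBD4 (0.30 ± 0.07). On the log2(TPM + 1) scale limma called none of the 9 in any sgEPCR comparison, and an unadjusted p under 0.05 was reached by 0 for this difference, 1 for the sgEPCR response, 0 between genotypes under DMSO and 2 under UM171. The calls of KDM1A and HDAC2 held in the other 25 alternatives.

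GFI1 was at 51.4, 163 and 157 TPM in sgEPCR DMSO and at 116, 43.2 and 116 TPM in sgEPCR UM171. Its log2 change was -0.68 ± 0.13 (adjusted p = 0.0012, edgeR). Without the 2 libraries it was -0.69 ± 0.04 (adjusted p = 4.9e-10). The difference from the response of control cells was -0.44 ± 0.18 (adjusted p = 0.073) in the fit of all libraries. RCOR2 was called as lower in sgEPCR cells (-1.14 ± 0.36, adjusted p = 0.022) on 2 to 17 counts a library, a call lost without the 2 libraries (-0.77 ± 0.39, adjusted p = 0.088) and with the replicate block (-1.23, adjusted p = 0.064). In all, 4 of the 9 members were called for the sgEPCR response, where 52.1% of all genes were, and 7 of 9 without the 2 libraries, where 71.0% were. Without the 2 libraries the count was 5 with total counts and 6 with the GC offset, whose shares of all genes are not reported here.

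KBTBD4 was not called as lower in sgEPCR cells at 24 h. It was at 4.53, 14.0 and 14.2 TPM with DMSO and at 16.1, 4.82 and 13.9 TPM with UM171, so that the libraries with few mitochondrial counts overlapped. The log2 change was -0.14 ± 0.16 (adjusted p = 0.5, edgeR), and -0.10 ± 0.06 (adjusted p = 0.14) without the 2 libraries, against -0.40 ± 0.05 in control cells. The difference between genotypes was 0.26 ± 0.22 (adjusted p = 0.37) with all libraries and passed without the 2 (adjusted p = 0.0023). RCOR1 was at 18.8, 39.9 and 38.2 TPM with DMSO and at 43.1, 22.8 and 37.6 TPM with UM171. Its libraries with few mitochondrial counts overlapped too. With TMM scaling its log2 change was -0.16 ± 0.07 (adjusted p = 0.074), and -0.17 ± 0.03 (adjusted p = 0.00033) without the 2 libraries. That change ran from -0.22 to 0.12 over 23 settings, so its direction depended on the processing.

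Between genotypes under DMSO, KDM1A (0.37 ± 0.06, adjusted p = 0.0011, edgeR) and HDAC2 (0.43 ± 0.12, adjusted p = 0.015) were higher in sgEPCR cells, 2 of 9 members where 33.7% of all genes were called. Without the 2 libraries the differences were 0.41 ± 0.03 and 0.35 ± 0.04 (adjusted p = 1e-07 and 1e-05), and 6 of 9 were called where 60.3% of all genes were. Neither call is firm: limma on log2(TPM + 1) turned the direction of both with all libraries (-0.12 and -0.16), and with the replicate block the adjusted p was 0.19 and 0.23. With total count scaling of all libraries edgeR called none of the 9 there, and 1 at an unadjusted p under 0.05. Under UM171, KDM1A (-0.86 ± 0.06, adjusted p = 3.5e-06), HDAC2 (-0.56 ± 0.12, adjusted p = 0.0028) and GFI1 (-0.45 ± 0.13, adjusted p = 0.017) were lower and RCOR3 was higher (0.71 ± 0.17, adjusted p = 0.0062) in sgEPCR cells, 4 of 9 where 43.0% of all genes were called. These differences were -0.83 ± 0.03, -0.71 ± 0.05, -0.33 ± 0.03 and 0.49 ± 0.05 without the 2 libraries, and 8 of 9 members were called, where 68.3% of all genes were. With the replicate block KDM1A alone passed (adjusted p = 0.011), and the adjusted p was 0.11 for HDAC2, 0.19 for GFI1 and 0.1 for RCOR3. With the stricter limits no member was called for the sgEPCR response (10.3% of all genes) or between genotypes under DMSO (2.84%) or UM171 (4.46%).

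GFI1B, the erythroid and megakaryocytic paralog of GFI1, was counted in few reads. It had 0, 1 and 1 counts in sgEPCR DMSO and 4, 9 and 5 in sgEPCR UM171. Per total counts the ratio was 8.80, with a 95% interval of 2.11 to 78.2 (exact binomial, counting error only), on 18 against 2 counts. The ratio was 4.51 without the 2 libraries, on 9 against 2 counts, with an interval of 0.934 to 42.9 that holds 1. With no filter on low counts edgeR gave GFI1B a log2 change of 2.91 ± 0.92 in sgEPCR cells (adjusted p = 0.027), and the difference from control cells was 1.91 ± 1.65 (adjusted p = 0.52). At 72 h in control cells 3 counts stood against 2 in DMSO. In all 7 groups GFI1 made up nearly all of the summed TPM of the pair, with a GFI1B share of at most 0.277% in any library.

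**Figure D3:**
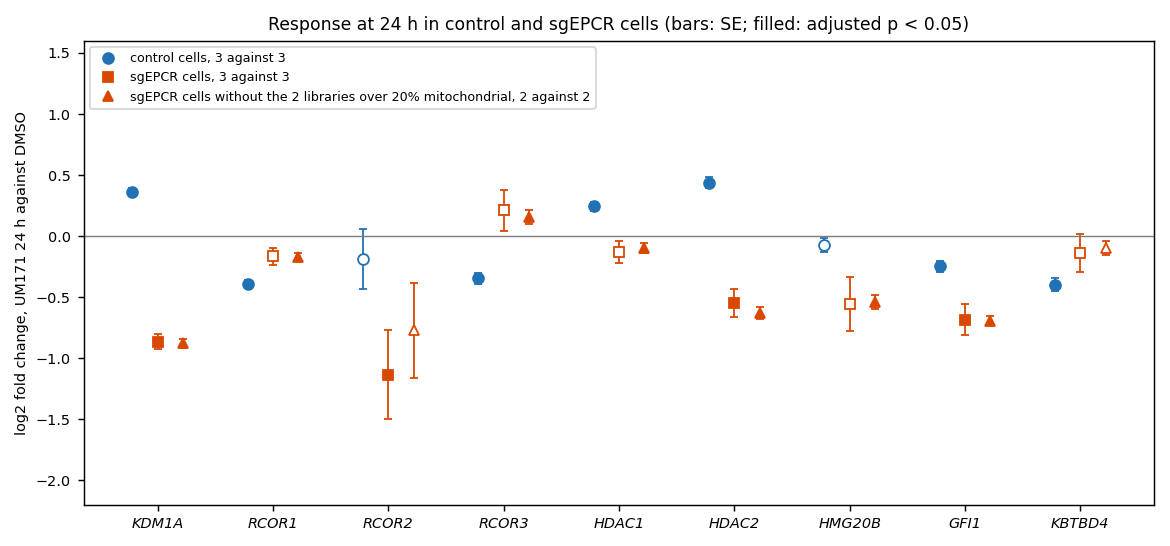
Log2 fold change at 24 h of UM171 against DMSO (vertical axis) for 9 genes in control cells (circles), sgEPCR cells (squares) and sgEPCR cells without the 2 libraries over 20% mitochondrial counts (triangles). Bars are SE and filled symbols have an adjusted p under 0.05. KDM1A and HDAC2 lie above 0 in control cells (0.36 and 0.44) and below it in sgEPCR cells (-0.86 and -0.55).

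The last question was how genes linked to the complex changed, from lists drawn up by their known function. Genes known to be repressed by GFI1, or to rise when LSD1 is inhibited in myeloid cells, were mostly higher under UM171. The list was drawn up with earlier results of these data known, so its counts and medians are a description and no independent evidence of a direction. Of 15 listed, 12 were tested, and 6 were higher and 0 lower at 6 h, where 31.8% and 30.3% of all genes were. The counts were 10 and 1 at 24 h (34.9% and 34.8% of all genes), 11 and 1 at 48 h (37.1% and 35.0%), and 10 and 2 at 72 h (38.8% and 36.8%). Their median log2 change was 0.34, 0.76, 1.09 and 1.31, against medians of all genes between -0.01 and 0.02. With total counts 8 were higher at 6 h and the other counts were the same. LY96, the MD-2 coreceptor of TLR4, rose from 0.68 to 1.15 TPM in DMSO to 54.6 to 65.2 TPM at 72 h (log2 change 6.10, adjusted p = 7.2e-15, edgeR). CSF1, the growth factor of macrophages, rose by 5.67, the transcription factor EGR2 by 3.77 and the costimulatory ligand CD86 by 3.19 on the same scale (adjusted p = 5.3e-15, 6.9e-12 and 8.9e-15). The 2 members lower at 72 h were IRF8 (-0.76) and ID1 (-0.65), a myeloid transcription factor and an inhibitor of helix-loop-helix factors, named after their values were seen. Beside these genes, the summed level of the 8 myeloid markers went from 1531 to 1623 TPM in DMSO to 2267 to 2467 TPM at 72 h, and its part was not tested.

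In sgEPCR cells 8 of these 12 genes were higher at 24 h and 2 lower (27.0% and 25.1% of all genes), with a median log2 change of 1.72. Without the 2 libraries 9 were higher and 2 lower, with a median of 1.71, where 71.0% of all genes were called in either direction. CSF1 went from 0.19, 0.40 and 0.52 TPM to 38.1, 17.0 and 38.4 TPM there, against 0.75, 0.87 and 1.14 TPM in control cells at 24 h and 15.6 to 16.4 TPM at 72 h. On the log2 scale the response of CSF1 exceeded that in control cells by 4.70 ± 0.37 (adjusted p = 4.1e-06, edgeR), and by 4.75 ± 0.32 without the 2 libraries (adjusted p = 7.8e-09). LY96, EGR2 and CD86 also rose more in sgEPCR cells, by 1.98 ± 0.48, 1.74 ± 0.43 and 1.14 ± 0.25 (adjusted p = 0.0062, 0.0071 and 0.0036), and by 1.83 ± 0.55, 2.28 ± 0.33 and 0.91 ± 0.20 without the 2 libraries (adjusted p = 0.0091, 3e-05 and 0.001). In sgEPCR DMSO, LY96 had only 1 to 3 counts a library.

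Among further CoREST subunits and the factors that bind the complex, 12 of 14 were tested. At 72 h 7 were higher and 5 lower (38.8% and 36.8% of all genes), with a median log2 change of 0.44, against 0.02 for all genes. PHF21A, the subunit that reads unmethylated H3K4, rose at every time, from 10.3, 10.4 and 9.97 TPM in DMSO to 48.2, 48.6 and 49.6 TPM at 72 h (log2 change 2.41, adjusted p = 1.5e-12, edgeR). ZMYM3, a zinc-finger subunit, rose by 1.08 (adjusted p = 1.9e-12). TAL1, a blood transcription factor that binds the complex, was lower at 72 h (-0.74, adjusted p = 8.5e-09). With total counts 7 were higher and 2 lower at 72 h. In sgEPCR cells 2 of the 12 were higher at 24 h and 3 lower (27.0% and 25.1% of all genes). Without the 2 libraries the counts were 4 and 4, where 71.0% of all genes were called in either direction. In control cells they were 8 and 3 (34.9% and 34.8%).

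The machinery that KBTBD4 works with, the CUL3 ligase and its neddylation and exchange factors, was low at 72 h as well, but by less. Of 9 genes, all tested, 0 were higher and 7 lower at 72 h (38.8% and 36.8% of all genes), with a median log2 change of -0.28, and with total counts 0 and 5. CUL3 itself was at 82.7, 76.2 and 76.3 TPM in DMSO and at 56.4, 59.6 and 61.7 TPM at 72 h (log2 change -0.43, adjusted p = 3.4e-07, edgeR). COPS5, a subunit of the COP9 signalosome that removes NEDD8, fell by 0.48, the RING subunit RBX1 by 0.40 and the exchange factor CAND1 by 0.38 (adjusted p = 4.9e-06, 5.8e-06 and 2e-06). The list took the other direction at 24 h, with 8 of 9 higher and 0 lower (34.9% and 34.8% of all genes), while KBTBD4 was lower. At 6 h the counts were 0 higher and 6 lower with TMM scaling (31.8% and 30.3% of all genes) and 1 and 2 with total counts. In sgEPCR cells 0 were higher and 3 lower at 24 h (27.0% and 25.1% of all genes). Without the 2 libraries the counts were 0 and 7, where 71.0% of all genes were called in either direction.

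**Figure D4:**
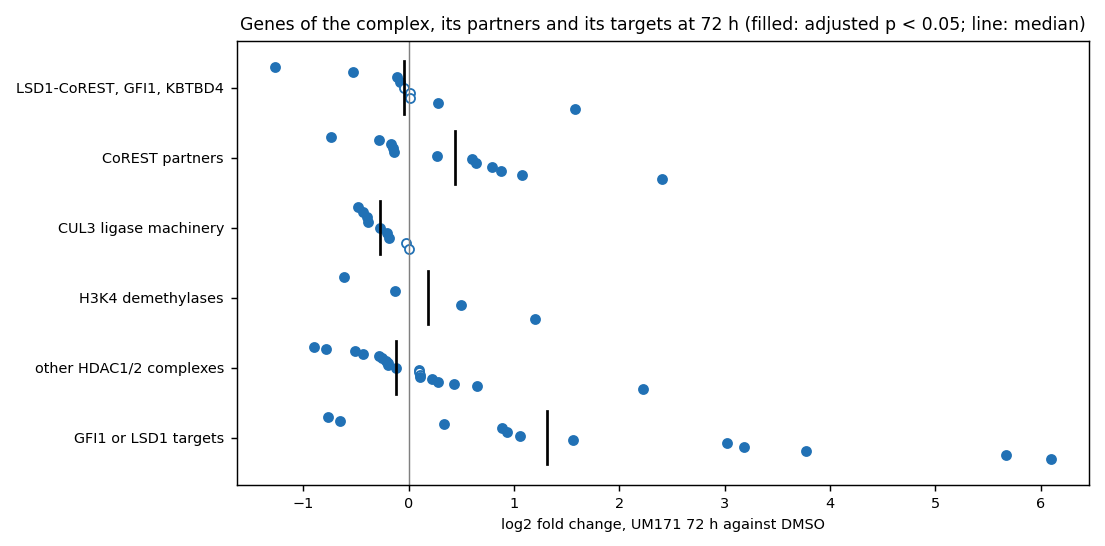
Log2 fold change at 72 h of UM171 against DMSO (horizontal axis) for the genes of the complex with GFI1 and KBTBD4, and for 5 lists of linked genes. Each point is a tested gene, filled where the adjusted p is under 0.05, and vertical lines are medians. The targets reach 6.10 (LY96), and KBTBD4 is the lowest point of all at -1.27.

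The genes whose levels were most like those of KDM1A over the 7 group means of log2 scaled counts, among 11096 genes, were KIF20A (Pearson r = 0.981), AARSD1 (0.977) and MRPS27 (0.977). For GFI1 they were CITED4 (0.984), TRAF7 (0.982) and INPP5D (0.980), and for KBTBD4 DHX38 (0.992), which went from 64.5 ± 2.40 TPM (SD, n = 3) in DMSO to 41.6 ± 3.37 TPM at 72 h. These are descriptions over 7 points that share libraries, and the best of many genes.

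The mean transcript length that RSEM assigned to a gene, which moves with the mix of its isoforms, was compared for 9 members over the 7 comparisons, and in 4 of 63 cases the groups did not overlap. GFI1 was at 2534 bases at 72 h against 2588 in DMSO, and HDAC2 at 1836 bases at 6 h against 1801 in DMSO. HDAC2 was also longer in sgEPCR DMSO than in DMSO, and RCOR3 in sgEPCR UM171 than in sgEPCR DMSO. The HDAC2 length in sgEPCR DMSO was 2119 bases in replicate 1, the library high in mitochondrial counts. It was 1823 and 1843 bases in replicates 2 and 3, against 1787 to 1813 bases in DMSO. Each of the 4 cases had an exact permutation p = 0.1, the smallest possible, and an adjusted p of 1.0. Among 13563 genes with a mean over 1 TPM, lengths did not overlap for 12.2%, 21.7%, 19.0% and 23.1% at 6, 24, 48 and 72 h, for 8.43% in the sgEPCR response, and for 14.8% and 18.0% between genotypes under DMSO and UM171.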

How the data were processed

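Stranded poly(A) RNA-seq of OCI-AML5 cells was analysed in 21 libraries. The authors deposited 1 RSEM gene table per library, with expected counts, TPM and FPKM. Per the labels, reads were trimmed with Trimmomatic 0.35, aligned to GRCh38 with STAR 2.5.1b and quantified with RSEM 1.2.28, after CASAVA 1.8.2. The strand setting and annotation version are not given in the sources used here, and the concentration printed is that of the labels, from which that in the study's legends for these cells differs. Deposited lengths and posterior SD values were used as other measures.

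Expected counts were rounded and 45 chromosome Y copies of shared genes added to their X entries. Symbols were found for 57392 of 58174 identifiers. Genes passing filterByExpr were tested with edgeR 4.0.16 (quasi-likelihood, TMM, Benjamini-Hochberg; R 4.3.3): 15 libraries and 16575 genes in the time course, 12 libraries and 15901 genes for sgEPCR, without a replicate block. The time course therefore shares its DMSO libraries across all 4 comparisons. Shares and transcript lengths were compared with exact permutation tests (scipy). The script was tested on simulated data. These had less spread than the sgEPCR libraries and none high in mitochondrial counts, so they do not show error rates there. Depth was 24286668 to 51540166 counts. Intervals cover counting error only.

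The members and lists were chosen with earlier results of these data known. Named genes were the members, up to 4 genes per list by the size of their change at 72 h, the 3 genes most like KDM1A, GFI1 and KBTBD4, PROCR, and genes overlapping a member; some genes that this rule gives are not reported here. The alternatives used DESeq2 (1.42.0) and, for TPM on a log2 scale, limma (3.58.1), as well as other scalings and filters, a GC offset, a replicate block and left-out libraries. In counting changes of direction, those with neither value past the threshold were set aside. Fits without both libraries high in mitochondrial counts that also changed scaling or GC, or that gave PROCR, GFI1B and the lists, were added after seeing the data.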

Additional observations from a re-analysis of the deposited data

Results flagged for a closer look

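The response to UM171 at 24 h differed between sgEPCR and control cells, by the interaction test in edgeR, for 3 members. The differences, sgEPCR minus control on the log2 scale, were -1.23 for KDM1A, -0.99 for HDAC2 and -0.38 for HDAC1. KDM1A and HDAC2 were called in opposite directions in the 2 genotypes, and without the 2 libraries high in mitochondrial counts their differences were -1.24 and -1.06.

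Of 19 genes named from the lists, 11 also differed in that test, where 45.0% of all genes did, and 18 without the 2 libraries, where 69.2% of all genes did. The targets CSF1 (4.70), LY96 (1.98), EGR2 (1.74) and CD86 (1.14) rose more in sgEPCR cells. Among CoREST partners the differences were -1.09 for ZMYM3 and -1.45 for TAL1. They were -0.61 for CAND1 of the ligase machinery, -1.30 for SIN3A and 0.66 for MIDEAS, scaffolds of other deacetylase complexes, and 0.55 for KDM5A and -0.81 for KDM5B, demethylases of the same histone mark. All 11 passed without the 2 libraries as well. With total count scaling of all libraries CAND1, KDM5A and KDM5B did not pass (adjusted p = 0.2, 0.055 and 0.075). In the 2 genotypes the DMSO libraries carry different times, so the part of time in these differences cannot be told apart from that of genotype.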

How the results depend on the processing

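Of 1517 member values under an alternative, 1256 kept direction and call, 131 lost the call, 103 gained one and 27 turned; 70 further changes of sign had neither value past the threshold. At 6 h 8 members became 2 with limma at either pseudocount and with all 21 libraries, 4 with upper quartile scaling, total counts or at least 10 counts in every library, and 5 to 8 when 1 library was left out (5 without DMSO replicate 2). At 72 h 6 became 3 with all 21 libraries and 4 to 5 with 1 library left out. Where no share of all genes stands beside a count in this paragraph, that share is not reported here. Such a count alone cannot tell a change in the members from a change in all genes. Under the stricter limits the counts were 1, 0, 0 and 2 from 6 to 72 h, and in sgEPCR cells 0, 0, 0 and 1 (response, DMSO, UM171, difference). In those 4, limma called 0 at either pseudocount. Leaving out both libraries high in mitochondrial counts gave 7, 6, 8 and 8, where 71.0%, 60.3%, 68.3% and 69.2% of all genes were called. Total counts gave 0 for DMSO, and, without the 2 libraries, 5, 6, 8 and 8 for the response, DMSO, UM171 and the difference. The GC offset gave 6, 5, 7 and 8 for these 4, and 6, 6, 9 and 8 without the 2 libraries. All 21 libraries gave 8 for UM171 and 6 for the difference. With 1 library left out the ranges were 3 to 5, 1 to 2, 4 to 5 and 2 to 6; they were 1 without DMSO replicate 3 and 6 without sgEPCR DMSO replicate 1.

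Values turned as follows. At 6 h limma gave KDM1A 0.0436 or 0.0441, RCOR3 0.10 or 0.11, HDAC2 0.000982 or 0.000992 and HMG20B 0.0253 or 0.0257 (pseudocount 1 or 0.1), upper quartile scaling gave KDM1A 0.00015, and total counts gave KDM1A 0.0878, RCOR3 0.0663, HDAC2 0.0482 and HMG20B 0.0433. With the GC offset HMG20B was 0.15 at 6 h, 0.37 at 24 h and 0.30 at 48 h, and with the offset and the replicate block 0.15, 0.37 and 0.30. HDAC1 at 72 h was 6.0e-05 or 5.1e-05 with limma. For sgEPCR DMSO against DMSO limma gave KDM1A -0.12 or -0.13 and HDAC2 -0.16, and without the 2 libraries GFI1 was 0.11, also with the GC offset. The cause was not tested. The RCOR1 share at 6 h differed by -9.05 points from TPM and by -5.49 points from expected counts.

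Replicate numbers are shared between groups. They did not pair the samples of the time course, where 0 of 30 same-numbered pairs correlated over 0.1 (-0.08 to 0.07). Whether they mark the same clone in both sgEPCR groups is not known. Of 3 same-numbered pairs 1 correlated over 0.1 (0.41), but pairs with different numbers had a median of 0.44. The other 2 same-numbered pairs (both -0.56) each hold a library high in mitochondrial counts. Such libraries are part of the group means from which deviations were taken, so these correlations cannot decide on pairing. With the replicate block 0 members were called for DMSO between genotypes (1 at an unadjusted p under 0.05) and 1 under UM171, and with the GC offset as well 0 for DMSO (2 unadjusted) and 6 for the difference. Depth limits RCOR2 and GFI1B only.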

Other observations

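Other deacetylase complexes and other demethylases of H3K4 are relatives of the genes above. All 19 listed subunits of other class I deacetylase complexes were tested. At 72 h 7 were higher and 10 lower (9 and 8 with total counts), where 38.8% and 36.8% of all genes were. MTA3, a subunit of the NuRD complex, rose by 2.23 on the log2 scale at 72 h, and its paralog MTA2 fell by 0.90 (adjusted p = 5e-16 and 4.4e-13, edgeR). MIDEAS, the scaffold of the MiDAC complex, fell by 0.79, and SIN3A, the scaffold of the SIN3 complex, was 0.65 higher (adjusted p = 5.7e-11 and 5.1e-08), after -0.93 at 6 h. Of 4 demethylases, KDM5B (1.2) and KDM1B (0.50), the paralog of KDM1A, were higher at 72 h and KDM5A (-0.62) and KDM5C (-0.13) lower, the last not with total counts (-0.05, adjusted p = 0.45).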
